A study of Rattus norvegicus with 4 samples.

Results

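Collagens and keratins are structural proteins of connective tissue and epithelium, and their genes were examined here in a macrophage line in which neither family is a defining product. The members were all array probes whose accession belongs to a rat gene with a Col or Krt family symbol. This gave 79 probes for 67 genes, 23 collagens and 44 keratins, out of 16526 genes that had a symbol and a value on every array. RefSeq holds 94 genes of such names, and 27 of them, 21 collagens and 6 keratins, were matched to no probe. The cells were NR8383, a rat macrophage line started from lung lavage and grown as a mix of adherent and floating cells. At 20 passages they had been exposed for 4 h to zinc iron oxide (ZnFe2O4, NRCWE021) at 17 µg/mL. Total RNA of 4 biological replicates was read on 1-colour (Cy3) arrays, which all carry this exposure. Unexposed cells were not analysed here, so no value below is a response to the particle.

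Collagens are built from 3 chains wound into a helix. Fibrillar types form the cables of connective tissue, type IV forms the sheet of basement membranes, and other types link, bead or anchor these structures. Fibroblasts and their relatives make most of them, while macrophages are known chiefly for taking up and degrading collagen. Keratins are the intermediate filaments of epithelial cells and assemble from obligate pairs of a type I and a type II chain. Macrophages usually carry vimentin filaments instead.

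A spot was called by the scanner software's flag for a signal well above background, and a gene by any spot of any of its probes. On both replicate 1 and replicate 4, 3 of the 67 genes were called (4.48%), against 46.0% of all named genes. These were 1 of 23 collagens, Col5a3, and 2 of 44 keratins, Krt79 and Krt81. The same 3 genes were called on all 4 arrays, where 42.6% of named genes were. The other 64 genes, 22 collagens and 42 keratins, were not called on replicate 4, where 46.4% of named genes were. On replicate 1, 10 of the 67 were called, 1 collagen and 9 keratins, against 52.5% of named genes.

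The arrays differed in the signal of their gene and control spots, and this bears on what a call means on each. The median processed signal of the gene spots was 12.8, 534, 132 and 7.01 intensity units on replicates 1 to 4. The arrays also carry 96 probes for ERCC RNA standards, whose use the labels do not mention. Of their spots, 1.95% and 0.791% were well above background on replicates 1 and 4, but 85.8% and 67.1% on replicates 2 and 3. Calls on replicates 2 and 3 were therefore common among probes with no stated target in the sample. The negative control spots had a median signal of 3.45, 23.0, 12.9 and 3.34 on replicates 1 to 4. On each array 0 of them were well above background. What raised the other signals on replicates 2 and 3 was not tested. Signals below are processed intensity units. A level is the log2 signal minus that array's 75th percentile over its probes. Signals of different probes are not compared.

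**Figure D1:**
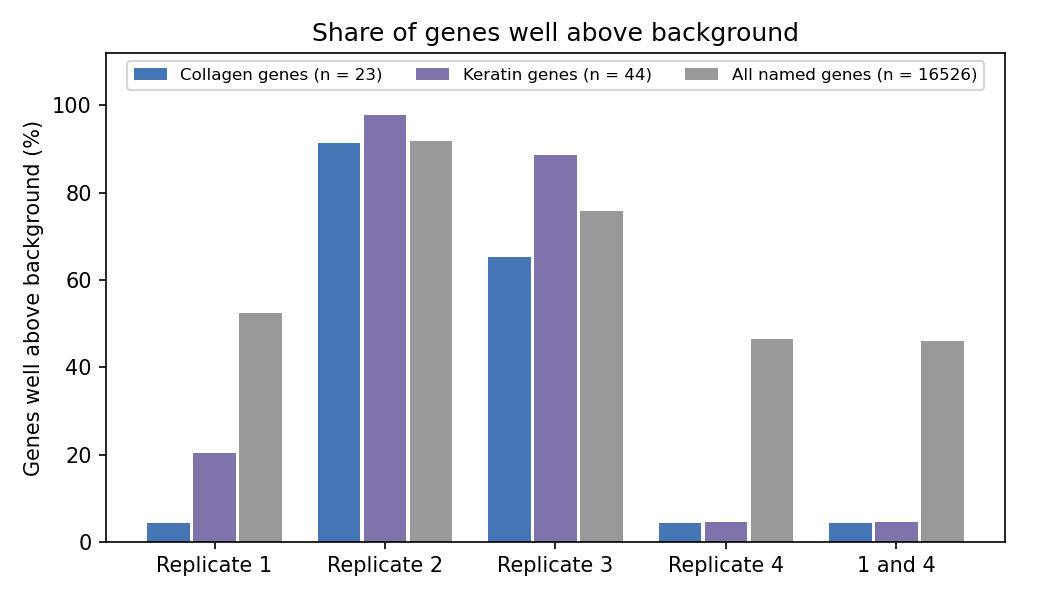
Bars give the percentage of measured genes called well above background on each of the 4 arrays and on both replicate 1 and replicate 4, for collagen genes, keratin genes and all named genes. Collagens and keratins lie far below all named genes on replicates 1 and 4, with 1 and 2 genes called on both, and near or above them on replicate 2.

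Krt79 stood far above background on every array. It encodes a type II keratin that is best known from the skin, in the upper hair follicle. Its probe, read by 10 spots, had a signal of 54253, 29202, 28586 and 26419 on replicates 1 to 4. All spots kept were well above background, 9, 10, 9 and 9 of them in the same order, and none was saturated. The repeated spots had an SD of 0.05, 0.08, 0.13 and 0.18 log2 units. Over all probes with 10 such spots the median SD was 0.10, 0.10, 0.13 and 0.16. The Krt79 signal was thus read as evenly as that of other probes. Evenness does not show which transcript a probe reads. This probe was matched to Krt79 through a predicted transcript model, and its specificity was not tested. Its signal was high on every array, including replicates 1 and 4, where few ERCC spots were called.

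The level of Krt79 was 7.64 ± 1.99 (SD, n = 4 arrays), with 9.26, 5.10, 7.02 and 9.19 on replicates 1 to 4. Replicates 2 and 3 were low on this scale, on which the subtracted percentile was 9.73 and 7.78 log2 units there and 6.47 and 5.50 on replicates 1 and 4. With quantile normalization the level was 7.66 ± 0.16 (SD, n = 4). When the 3 brightest spike-in probes set the scale, an alternative chosen after the data were seen, it was 7.64 ± 0.35 (SD, n = 4). The spike-in scale is centred to keep the mean, so only its SD carries information. The SD of this gene depended on the scaling. Replicates 1 and 4 alone differed by 0.07 log2 units, inside the range from -0.70 to 0.58 between the percentiles 5 and 95 of the 14504 probes called on both. Above the percentile 99 of the ERCC spots on all 4 arrays, Krt79 was the 1 gene among the members, where 8.60% of named genes passed.

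Krt79 lies on rat chromosome 7 (GRCr8), which in RefSeq holds 25 keratin genes, 23 of them measured. Its neighbours there are Krt4 on one side and Krt78 and then Krt8 on the other. Krt78 was matched to no probe. Krt4, a keratin of stratified mucosa, had signals of 5.45, 465, 130 and 3.20 on replicates 1 to 4. Krt8, the type II keratin of simple epithelia, had 4.40, 1047, 310 and 3.15. Neither was called on replicate 1 or 4. Of the 21 keratins measured on chromosome 10, where most type I chains are encoded, none was called on both replicates 1 and 4. Of all named genes 46.0% were. Called Krt79 thus had neighbours that were not called.

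Col5a3 encodes the α3 chain of type V collagen, a minor fibrillar collagen that co-assembles with the major fibrils. Its probe, read by 2 spots, had a signal of 139, 681, 290 and 49.9 on replicates 1 to 4, and both spots were well above background on each array. On replicates 1 and 4 these signals were above the 99th percentile of the ERCC control spots, which was 28.2 and 14.9. On replicates 2 and 3 they were below it, at 1978 and 350. Only replicates 1 and 4 therefore set Col5a3 apart from the control probes. Its level was 0.22 ± 0.41 (SD, n = 4), with 0.65 and 0.14 on replicates 1 and 4. Col5a1, the α1 chain with which it forms type V collagen, had 2 probes. The one with 10 spots read 5.87, 137, 12.4 and 3.31, and the other read 3.49, 22.9, 49.7 and 3.10. Neither Col5a1 probe was called on replicates 1, 3 or 4. Col5a2, the remaining classical chain, was matched to no probe.

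Krt81 encodes a type II keratin of the hair shaft. Its probe has 1 spot, with signals of 24.8, 1235, 202 and 17.6 on replicates 1 to 4. It was called on all 4 arrays. On replicates 1 to 3 its signal was below the 99th percentile of the ERCC spots, which was 28.2 on replicate 1. On replicate 4 its signal was above that percentile, which was 14.9 there. Krt81 was thus near background by that measure on replicates 1 and 4, on opposite sides of the threshold. Krt86, a closely similar hair keratin and its neighbour on chromosome 7, had 66.2, 777, 309 and 16.5, and it was called on replicates 1 to 3. When the ERCC percentile was used for the call on replicates 1 and 4, in place of the flag, Krt79 and Krt86 passed and Krt81 did not, where 45.9% of named genes passed. This threshold, and the description of Krt86, were chosen after the values were seen. The thresholds set on other controls gave larger counts. With the software's looser flag for a positive and significant signal, 11 collagens and 23 keratins passed on replicates 1 and 4, and 61.8% of named genes did. Above the percentile 99 of the negative control spots 9 collagens and 20 keratins passed, against 58.2% of named genes. At 3 SD above the dimmest spike-in 2 and 10 passed, against 52.3%. In each of these counts both families stayed below the share of named genes. Krt81, Krt83 and Krt86 have closely similar transcripts, and which of them a probe reads cannot be told apart here.

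The brightest of the 6 spots adjacent to Krt81 had a signal of 33473 on replicate 1 and 19333 on replicate 4. For Krt86 these values were 30878 and 18108. Over all gene spots the brightest of the 6 adjacent spots had a median of 4705 and 2491, so both faint hair keratin spots lay beside bright ones on both arrays. The part of the adjacent spots in the 2 signals was not tested.

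Besides Krt79 and Krt81, 7 keratins were called on replicate 1 and not on replicate 4, namely Krt2, Krt20, Krt25, Krt71, Krt77, Krt86 and Krt87. Of all named genes, 6.42% did so, and of the collagens none did. Each of the 7 was read by 1 spot. Their signals on replicate 1 ran from 20.0 for Krt2 to 66.2 for Krt86, and on replicate 4 from 4.09 for Krt77 to 16.5 for Krt86. On replicate 4 Krt86, at 16.5, was the nearest of the 7 to Krt81, which was called at 17.6. Krt77, at 4.09, was below the 99th percentile of the negative control spots there, which was 4.94. Krt2 belongs to the upper epidermis, Krt20 to the gut epithelium, and Krt25 and Krt71 to the inner root sheath of the hair. The brightest adjacent spot on replicate 1 had 27.9 for Krt2, 61.6 for Krt20 and 68.7 for Krt25. It had 2739 for Krt71, 5857 for Krt77 and 8678 for Krt87. Over all gene spots this value had a median of 4705 on replicate 1. Krt71 was below that median, at percentile 39.8, and Krt77 and Krt87 were above it, at percentiles 53.9 and 62.3. Krt2, Krt20 and Krt25 were far below it, at percentiles 4.37, 7.20 and 7.67.

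Among collagens the major fibrillar chains were not called on replicates 1 and 4, although Col1a2 and Col3a1 passed the looser flag on both. Col3a1, the chain of type III collagen, was read by 10 spots and had signals of 3.83, 492, 98.1 and 4.09 on replicates 1 to 4. None of its spots was called on replicates 1 and 4. Col1a2, a chain of type I collagen, had 14.1, 604, 68.5 and 6.40. Its partner Col1a1 had 2 probes, with 4.14, 1474, 81.9 and 4.63 on one and 5.46, 210, 103 and 3.49 on the other. Only the second of the Col1a1 probes was called on replicate 3, and both were called on replicate 2. Col2a1, the fibrillar collagen of cartilage, had 9.02, 432, 102 and 2.84. In all, 1 of 8 fibrillar genes measured was called on replicates 1 and 4, against 46.0% of all named genes, and it was Col5a3.

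No gene of the other collagen classes was called on replicate 1 or 4. The counts were 0 of 2 basement membrane chains, 0 of 2 beaded filament chains, 0 of 4 fibril-associated collagens, 0 of 2 transmembrane collagens and 0 of 2 multiplexins. Of all named genes 52.5% were called on replicate 1 and 46.4% on replicate 4, and each of these classes is small. Col7a1 of anchoring fibrils, the short-chain Col8a1 and Col26a1 were not called there either. Col4a1, the main basement membrane chain, was read by 10 spots with signals of 5.61, 556, 98.0 and 3.48. Col7a1 had 3.32, 648, 175 and 3.26. Over the 30 probes of collagens other than Col5a3, the median signal was 5.10, 484, 90.0 and 3.78 on replicates 1 to 4. The highest was 14.9 on replicate 1 and 18.2 on replicate 4, both from 1 probe of the transmembrane collagen Col23a1. Col4a2, Col6a1 and Col17a1 were matched to no probe.

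The listed keratins of simple and of stratified epithelia were likewise not called on both replicates 1 and 4. Krt18, the type I partner of Krt8, had a probe of 10 spots with 5.12, 663, 166 and 3.53, and none of these spots was called on replicates 1 and 4. Krt19, found in ducts and airways, had 3.55, 515, 206 and 8.23. Krt7, which marks ductal and glandular epithelium, had 2 probes, with 3.29 and 14.8 on replicate 1 and 2.90 and 5.58 on replicate 4. Krt5 and Krt14 form the filaments of basal epidermal cells, and the 10 spots of each were read at 3.72, 193, 99.4 and 3.69 for Krt5 and at 10.9, 215, 14.3 and 3.96 for Krt14. Krt1, of the differentiating epidermis, had 3.64, 192, 79.7 and 4.12. Krt10, its partner, was matched to no probe. By type, 0 of 21 type I and 2 of 19 type II keratins were called on replicates 1 and 4, and 0 of 4 (Krt42, Krt87, Krt88 and Krt90) that were not assigned to a type here. Of all named genes 46.0% were, and a difference between the types was not tested.

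Probes with 10 spots were read with more precision than those with 1. Besides Krt79 there were 10 of them, for Col3a1, Col4a1, Col5a1, Col6a2, Col16a1, Krt5, Krt14, Krt15, Krt17 and Krt18. On replicate 1, 0 of 97 spots were well above background, and on replicate 4, 0 of 97. Any called spot calls its gene, so these counts restate that the 10 genes were not called there and add no support. On replicates 2 and 3, 84 of 95 and 59 of 90 spots of the same probes were called. Of all gene spots, 46.4%, 89.3%, 70.2% and 41.0% were called on replicates 1 to 4, so the counts on replicates 2 and 3 are near the general share. Repeated spots of a probe are read from 1 sample and are not separate replicates.

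On replicates 2 and 3 most members were called, as were most genes and most ERCC spots. The counts on replicate 2 were 21 of 23 collagens and 43 of 44 keratins, with 91.8% of named genes. On replicate 3 they were 15 and 39, with 75.7% of named genes. In 44 members, 14 collagens and 30 keratins, the gene was called on both of these arrays and on neither replicate 1 nor 4, which 27.8% of named genes did. This count needs a gene to be uncalled on replicates 1 and 4, so it partly restates that few members were called there. Col6a5, Col9a2 and Krt42 were called on no array. The 76 probes of members not called on both replicates 1 and 4 had a median signal of 5.67, 577, 129 and 4.02. The ERCC probes had 4.02, 354, 88.6 and 3.62. Both kinds of probe were thus far brighter on replicate 2 than on replicates 1 and 4.

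**Figure D2:**
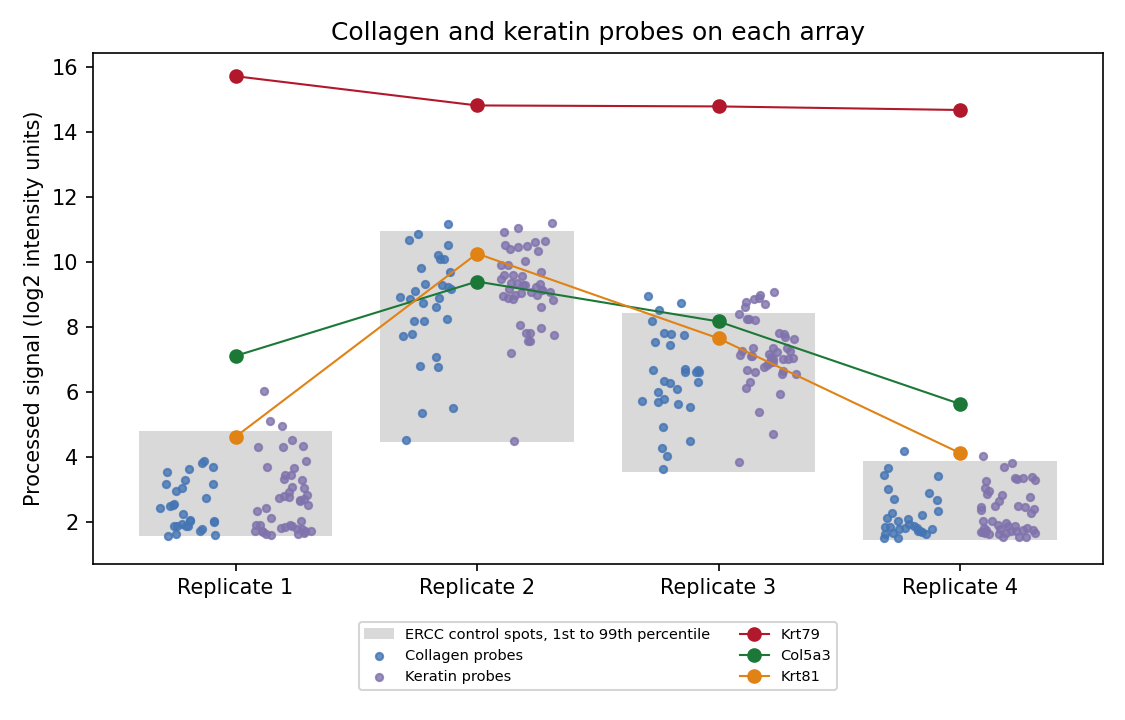
Each point is a collagen or keratin probe, and the y axis gives its processed signal in log2 intensity units on each of the 4 arrays. Grey boxes span the 1st to 99th percentile of the ERCC control spots, and lines join the values of Krt79, Col5a3 and Krt81. Krt79 stays between 14.69 and 15.73 on all arrays, while nearly all other member probes move up and down with the grey boxes.

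The order of the undetected members was partly kept between arrays. Across these 76 probes the log2 signals of replicates 2 and 3 had a Pearson r of 0.80 and a Spearman rho of 0.82. Across the 96 ERCC probes the values were 0.81 and 0.79, and across 27690 gene probes called on neither replicate 1 nor 4 they were 0.74 and 0.77. Between replicates 1 and 4, which set the call, the members had an r of 0.56 and a rho of 0.53, the ERCC probes 0.93 and 0.77, and the gene probes 0.44 and 0.54. Members and control probes were thus close in this measure on replicates 2 and 3 and apart on replicates 1 and 4. Between replicates 1 and 2 the r over the members was 0.32. All probes of an array share its hybridization and scan, each probe keeps its base composition on every array, and the 4 arrays lay on 1 slide. Probes are not independent replicates, and these correlations are descriptions.

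**Figure D3:**
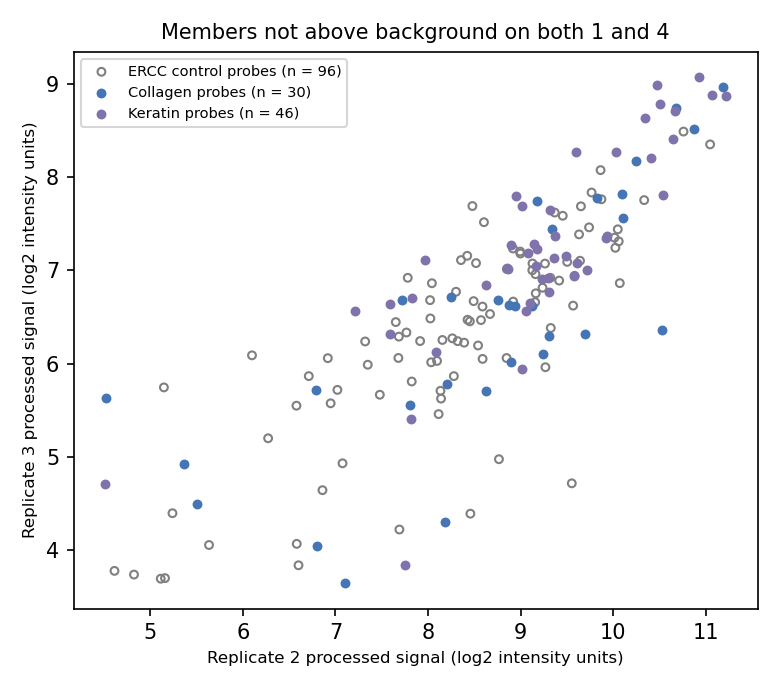
Processed signal on replicate 3 (y axis) against replicate 2 (x axis), both in log2 intensity units, for 30 collagen and 46 keratin probes of genes not called on both replicates 1 and 4 and for 96 ERCC control probes. The 3 kinds of probe fall along 1 common trend, with r of 0.80 for the members and 0.81 for the control probes.

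The promoters of 2 called members and of 1 neighbour are shown to see what letters they share, which the member rule did not use. Krt8 was chosen after its values were seen. RefSeq's table for GRCr8 gave 250 bases before the start for 51 of the 67 genes, among them Krt79 and Col5a3. Those of Krt79 (chr7:134946448-134946697, minus strand), of Col5a3 (chr8:27625949-27626198, minus strand) and, as a nearby keratin that was not called on replicates 1 and 4, of Krt8 (chr7:135010340-135010589, minus strand) are given 5′ to 3′, with CG and TATAAA on either strand in capitals.
Krt79: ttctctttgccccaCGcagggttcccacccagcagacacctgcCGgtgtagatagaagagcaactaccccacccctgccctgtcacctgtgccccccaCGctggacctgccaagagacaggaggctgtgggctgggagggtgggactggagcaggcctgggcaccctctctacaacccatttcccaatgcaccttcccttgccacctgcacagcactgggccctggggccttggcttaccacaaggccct
Col5a3: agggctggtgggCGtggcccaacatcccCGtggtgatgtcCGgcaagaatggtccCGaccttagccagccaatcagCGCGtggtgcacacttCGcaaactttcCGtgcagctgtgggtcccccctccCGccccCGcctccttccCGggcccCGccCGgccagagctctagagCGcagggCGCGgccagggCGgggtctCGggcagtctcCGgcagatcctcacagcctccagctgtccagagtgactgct
Krt8: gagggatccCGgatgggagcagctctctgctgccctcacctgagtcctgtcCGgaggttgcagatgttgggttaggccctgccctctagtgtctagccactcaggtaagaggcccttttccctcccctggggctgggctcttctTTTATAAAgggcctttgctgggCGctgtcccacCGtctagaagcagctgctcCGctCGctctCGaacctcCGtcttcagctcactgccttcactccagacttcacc
The Col5a3 window holds 19 CG, the Krt8 window 8 and the Krt79 window 3. The median was 17 over 6389 named genes called on replicates 1 and 4, and 5 over 7119 that were not. Col5a3 is close to the first value and Krt79 is below the second. Over the keratins not called, with 32 windows, the median was 5, and over 17 such collagens it was 11.

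TATAAA, counted on either strand, was found in 17 of the 32 keratin windows (53.1%), including that of Krt8, where the motif overlaps its own reverse complement. It was found in 2 of the 17 collagen windows, and in 13.1% of all 27457 windows of this length. The windows of Krt79 and Col5a3 do not hold these letters. GAGGAA, a core of sites bound by the macrophage factor PU.1, was searched on both strands as well and was in neither window. A match to it can share a base with a CG but not with TATAAA. It was in 23.2% of all windows. A match in such a window is a description of its letters and not a binding site.

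**Figure D4:**
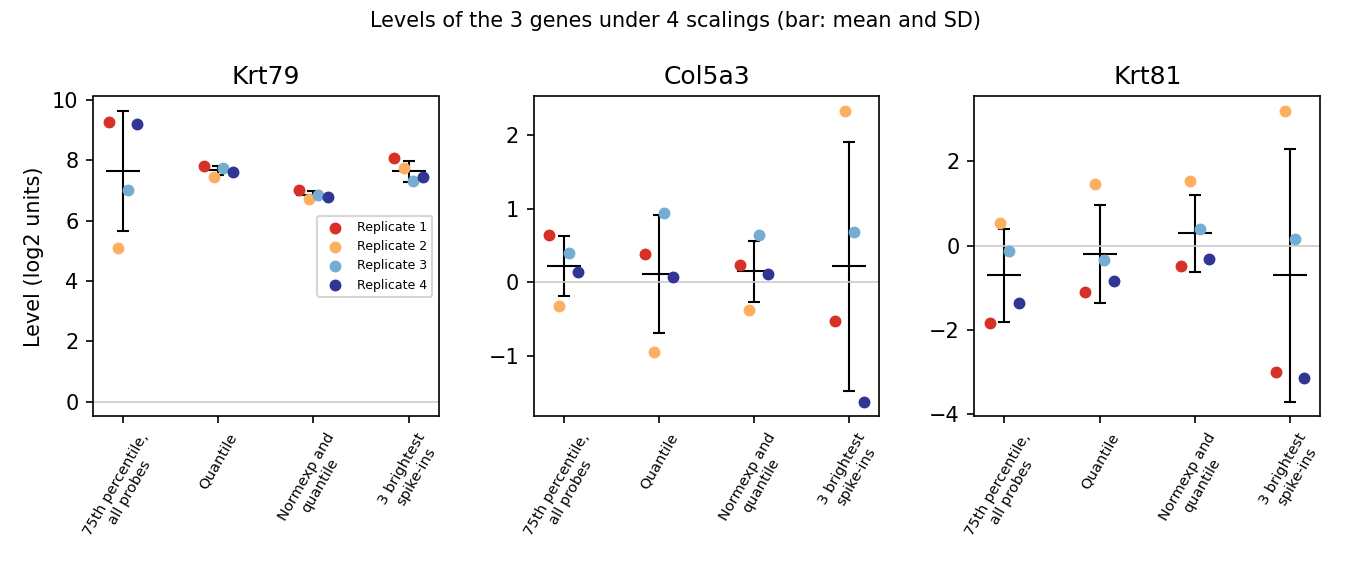
Points give the level of Krt79, Col5a3 and Krt81 on each of the 4 arrays in log2 units, under 4 scalings (x axis), and bars give the mean and SD. The arrays lie close together for Krt79 under quantile normalization and spike-in scaling, with an SD of 0.16 and 0.35, and lie apart for Col5a3 and Krt81 under spike-in scaling, with an SD of 1.69 and 3.00.

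Under other scalings the 3 called genes behaved differently. Scaled on spike-in probes, the level of Col5a3 was -0.52 and -1.62 on replicates 1 and 4 and 2.33 on replicate 2. That of Krt81 was -3.13 on replicate 4 and 3.19 on replicate 2. For both genes replicate 2 was the highest array and replicates 1 and 4 the lowest, in the order of the arrays' median gene spot signals. For Krt79 the 4 values ran from 7.30 to 8.09, with no such order.

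Of 20 measured genes of collagen folding and cross-linking, 10 were called on replicates 1 and 4 (P4ha1, P4ha2, P4hb, P3h1, Ppib, Plod1, Plod3, Colgalt1, Bmp1 and Pcolce). This share is near the 46.0% of all named genes. With the looser flag 14 of the 20 passed, beside 11 of 23 collagens, and above the negative control percentile 11 of the 20, beside 9 of 23. P4hb, the β subunit of prolyl 4-hydroxylase and a general disulfide isomerase, had signals of 4309, 2856, 1947 and 2667 on replicates 1 to 4. Plod3, a lysyl hydroxylase, had 2487, 1632, 1160 and 983. Serpinh1, a chaperone dedicated to collagen, had 12.1, 283, 34.7 and 4.28, from the brighter of its 2 probes, which was called on replicates 1 and 2 and not on replicates 3 and 4. Of the lysyl oxidase family, which cross-links collagen, Loxl1, Loxl2, Loxl3 and Loxl4 were not called on both replicates 1 and 4. The list was thus mixed, with several collagen-modifying enzymes called on all 4 arrays and others not.

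Of 19 genes of collagen breakdown, 10 (52.6%) were called on replicates 1 and 4, near the 46.0% of all named genes. These were Mmp9, Mmp12, Mmp15, Timp2, Ctsb, Ctsl, Ctss, Mrc2, Pepd and Fap. Mmp12, the macrophage elastase, had signals of 132, 791, 143 and 224. Ctsb, a lysosomal protease, had 42408, 24599, 18164 and 22455, and Mrc2, an endocytic receptor for collagen, had 579, 737, 351 and 211. The collagenases Mmp8 and Mmp13 and the osteoclast protease Ctsk were not called on replicate 1 or 4. Of 9 collagen receptor genes 4 were called (44.4%, also near that share), namely Itgb1, Mrc1, Cd36 and Cd44. The collagen-binding integrin chains Itga1 and Itga10 and the kinases Ddr1 and Ddr2 were not called on both arrays.

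Among 16 other intermediate filament genes the 4 called on replicates 1 and 4 were Vim, Lmna, Lmnb1 and Lmnb2 (25.0%, against 46.0% of all named genes). Vim, the filament of mesenchymal cells and leukocytes, had signals of 17533, 10408, 8231 and 7778, and Lmna, of the nuclear lamina, had 19962, 12358, 11748 and 9398. The filaments of muscle, glia and neurons in the list, such as Des, Gfap and Nefl, were not called on replicate 1 or 4. Besides Krt79 and Krt81, the intermediate filament genes called were thus vimentin and the lamins. Of 15 genes of desmosomes and other keratin partners, 5 (33.3%) were called, namely Pkp4, Dsc2, Plec, Itgb4 and Itga6. Plec, a linker that also binds vimentin, had 4086, 2822, 2334 and 1725, while Jup, Pkp3 and Ivl were not called on replicate 1 or 4. Evpl, Dsg3 and Tchp were called on replicate 1 and not on replicate 4.

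**Figure D5:**
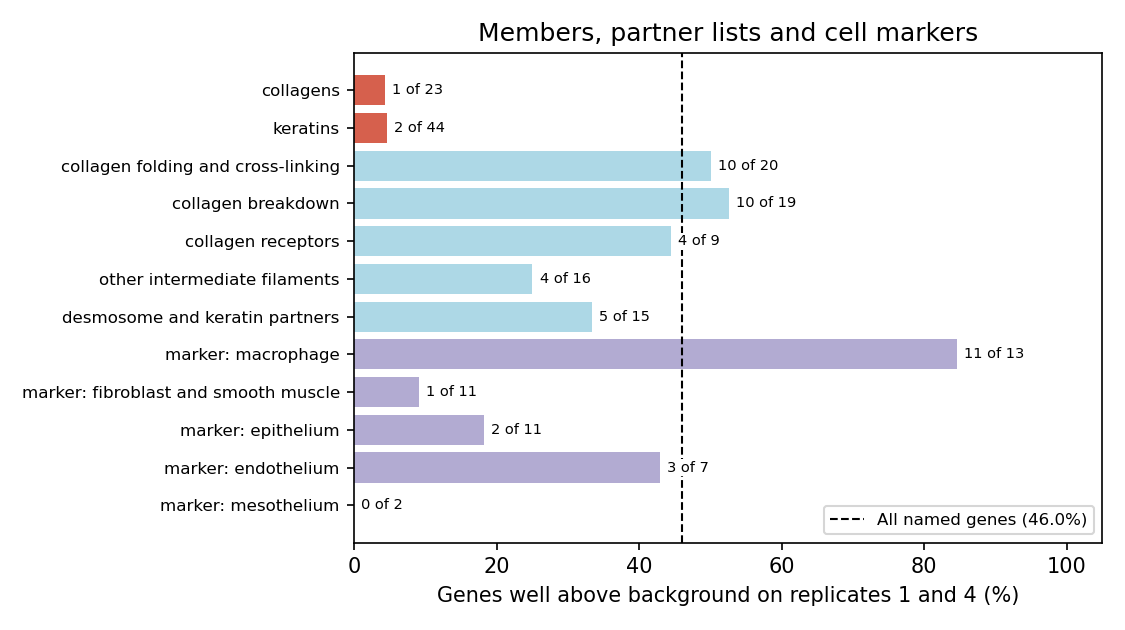
Bars give the percentage of measured genes called well above background on both replicate 1 and replicate 4 (x axis) for collagens, keratins, 5 lists of partner genes and 5 lists of cell markers, with counts beside each bar. The dashed line is the 46.0% of all named genes, and both member families lie well to its left, at 1 of 23 and 2 of 44.

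Cell markers were read on the same arrays, without members of either family. Of 13 macrophage markers 11 (84.6%) were called on replicates 1 and 4, the exceptions being Marco and Adgre1. Of all named genes 46.0% were, and this share stands beside each marker count below. Cd68 had signals of 9443, 7650, 7585 and 5909. Of 11 fibroblast and smooth muscle markers 1 was called, Dcn, with 161, 302, 98.3 and 80.0. Fn1, Lum, Postn and Pdgfra were not called on replicate 1 or 4. Acta2 and Fbln1 were called on replicate 1, with signals of 25.6 and 20.7, and not on replicate 4. Of 11 epithelial markers 2 were called, Cldn3 with 141, 243, 223 and 173 and Foxj1 with 122, 292, 116 and 48.8, while Epcam and Cdh1 were not called on replicate 1 or 4. Of 7 endothelial markers 3 were called, Pecam1, Cdh5 and Vwf, and of 2 mesothelial markers none. The epithelial marker Ager and the mesothelial marker Msln were called on replicate 1 and not on replicate 4. Krt79 was thus bright on replicates 1 and 4, on which Cldn3 and Foxj1 were called and Epcam and Cdh1 were not. The source of the Krt79 signal was not tested. In total RNA of a culture, a few cells with much of a transcript and many cells with little cannot be told apart.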

How the data were processed

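RNA of 4 exposed cultures was measured on 4 arrays. Scanner images were read by Agilent Feature Extraction 11.0.1.1. Its processed intensity, as the authors deposited it, has background subtracted and spatial trend removed, per the file headers. No step between arrays is recorded. The array design names an older rat build, and its coordinates were not used. The value table deposited by the authors equals the median spot intensity on all 62976 spots of each array.

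Control spots and spots marked as outliers were left out (4, 5, 11 and 4 of the 180 member spots on replicates 1 to 4). Spots of a probe were averaged on the log2 scale. Accessions without versions were matched to RefSeq (GRCr8). Each array's 75th percentile was subtracted. All sequences are from RefSeq, GRCr8. Alternatives used limma 3.58.1 for normexp (offset 50, on the median spot signal). The calling code was run on simulated data with flags set in advance. This checks that the code reads the flags, not whether a flag marks a transcript. No test between groups was possible with 1 group. The members and lists were chosen with earlier results of these data known, and replicates 1 and 4 were set by the member rule. Named genes are all members called on both, plus a fixed list of well-known collagens and keratins, and up to 4 valued genes per partner list. Further members named beside these, such as Col5a1, Col23a1, Krt4, Krt25 and Krt86, were not on that fixed list.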

Additional observations from a re-analysis of the deposited data

How the results depend on the processing

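Counts of called genes on replicates 1 and 4 depended on the reference for background. With the software's looser flag for a positive and significant signal, 11 collagens and 23 keratins passed, where 61.8% of named genes did. Above the 99th percentile of the negative control spots, 9 and 20 passed (58.2% of named genes), and 3 SD above the dimmest spike-in, 2 and 10 (52.3%). A call on either array gave 9 keratins. Without replicate 1 or replicate 4 the count ran from 2 to 9 for keratins and from 1 to 1 for collagens, and the 9 came without replicate 4. Requiring all 4 arrays, all probes of a gene or at least 1 in 2 spots of a probe, or keeping outlier spots, left Col5a3, Krt79 and Krt81 as the called genes. Each of these genes has 1 probe, so the rule on all probes could remove none of them. Krt81, with 1 spot, could not fail the rule on spots either. Levels moved by more than 1 SD when the percentile was taken over probes above background on all arrays, with 4.82 for Krt79, -2.60 for Col5a3 and -3.52 for Krt81. That choice subtracts a different constant from all probes of an array, so the mean of every gene moved by the same amount. The move therefore says nothing about these genes in particular. Only the SD could differ between genes, and it was 0.47 for Krt79, 1.42 for Col5a3 and 2.74 for Krt81. For Krt79 this was lower than with the percentile over all probes, and for Col5a3 and Krt81 it was higher. No paired analysis was possible because all arrays belong to 1 group. With 4 arrays of 1 group, and 66 of 79 member probes read by 1 spot, precision is limited, and a member not called may still be transcribed at a low level.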
